A study of Mus musculus with 10 samples.

Results

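The ADAM, ADAMTS and ADAMTS-like genes were described here in bulk mRNA libraries from the cheek skin of 10 C57BL/6 mice, 6 to 8 weeks of age. The members are the rows of the deposited table whose symbol is Adam, Adamts or Adamtsl followed by a number, 46 of the 18994 genes listed, and the rule uses no measured value, though the family was picked for description with earlier results of these data known. They are 22 ADAM, 19 ADAMTS and 5 ADAMTS-like genes. Mice of both groups had the cheek shaved 3 days before a 5 µL injection into the dermis of the right side. The injection held 1 µg of MMP9, matrix metalloproteinase 9, which is a gelatinase, in 5 mice and only vehicle in the other 5, and the tissue was collected 4 hours later. Each library came from 1 mouse. The mice carried no engineered allele in the labels, so the model is a single injection of protein into otherwise healthy skin. The sources used here do not give the make-up of the vehicle, where the protein came from, or whether the mice were male or female.

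ADAMs are mostly membrane-anchored metalloproteinases that cut the outer parts of other membrane proteins loose, a process called shedding. They release growth factors, cytokines and adhesion molecules, and in skin they act on ligands of the epidermal growth factor receptor, on Notch and on cadherins. ADAMTS proteases are secreted, carry thrombospondin repeats and cut matrix proteins such as versican, aggrecan and procollagens, while ADAMTS-like proteins share the repeats but lack the protease domain. Injected MMP9 belongs to a related but separate family of metalloproteinases, and TIMP proteins inhibit enzymes of all of these families to differing degrees.

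The libraries held 17121541 to 19443099 estimated counts each, and 39 to 44 of the 46 members had at least 1 count in a library. To compare libraries within a gene, CPM was divided by the TMM factor of each library (scaled CPM), and to compare genes TPM was used, which accounts for transcript length. MMP9 mouse 4 stood apart: its median TPM over all listed genes was 5.30, against 8.24 to 9.15 in the other 9 libraries, and its TMM factor was 0.84, against 0.99 to 1.05. Its TPM values are therefore low for most members, and it is compared by scaled CPM, on which it was still the lowest library for 13 of the 34 members tested. Vehicle mouse 2 and MMP9 mouse 1 were nearly without hair shaft and inner root sheath transcripts, with a summed level of 2.13 and 3.26 scaled CPM over 5 marker genes, against 218 to 3800.2 in the other 8. Keratinocyte, fibroblast and endothelial markers were detected in every library, as was skeletal muscle, whose 5 marker genes summed to between 11151 and 22674 scaled CPM. In bulk tissue, fewer cells of a type and less RNA per cell cannot be told apart.

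No member of the family passed the test between MMP9 and vehicle. Of the 46 members, 34 passed the filter on low counts and were tested, and 0 passed edgeR's quasi-likelihood test at a Benjamini-Hochberg adjusted p of 0.05 over all genes tested. The share of all 15250 tested genes that passed was likewise 0%. DESeq2 and limma-voom also called 0 members. At an unadjusted p under 0.05 there were 2 members, both higher in MMP9, against 3.19% of all tested genes, 2.07% of them higher and 1.12% lower. By DESeq2 and by limma-voom 2 members had an unadjusted p under 0.05. No tested member had groups that did not overlap, where 0.564% of all tested genes did, 0.426% with MMP9 above and 0.138% with MMP9 below. Among the tested members 19 had a log2 fold change above 0 and 15 below, with a median of 0.042, and 53.7% of all tested genes lay above 0, with a median of 0.013. The members' values lay between -0.38 and 0.70. For 28 of the 34 the 95% interval lay within 1 of 0 on the log2 scale, as it did for 13756 of all 15250 tested genes, a larger share.

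**Figure D1:**
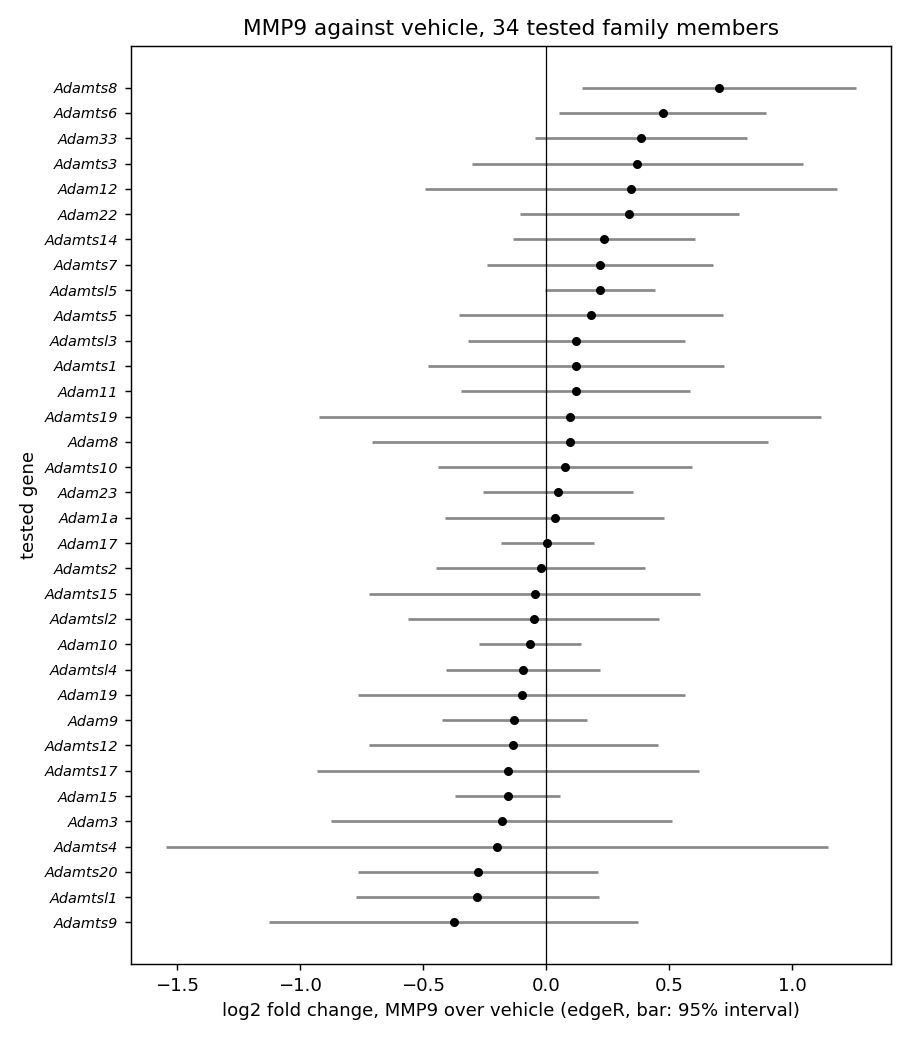
Log2 fold change of MMP9 over vehicle for the 34 tested members (x axis; y axis: genes in order of that value), from edgeR with bars showing 95% intervals. The values run from -0.38 for Adamts9 to 0.70 for Adamts8, the intervals of Adamts8 and Adamts6 lie above 0 before adjustment, and that of Adamts4 is the widest.

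By TPM, the family in this tissue was led by membrane ADAMs and by a pair of ADAMTS-like genes. Adam15 (Entrez gene 11490), a membrane protease with a disintegrin domain, was the most abundant member, with 77.5 ± 7.13 TPM in vehicle and 68.2 ± 15.6 in MMP9 (SD, n = 5). It held 19.5% of the summed mean TPM of the family, and it was above the next member in 10 of 10 libraries. The next were Adamtsl4, a fibrillin-binding protein of the ADAMTS-like group, with 36.2 ± 3.06 TPM in vehicle and 34.0 ± 10.8 in MMP9, and Adam10, the sheddase of Notch and E-cadherin, with 33.5 ± 2.89 TPM in vehicle and 31.5 ± 8.02 in MMP9. Adam9 followed with 31.2 ± 4.83 TPM in vehicle and 28.2 ± 8.05 in MMP9, Adamtsl5 with 24.7 ± 1.80 TPM in vehicle and 28.2 ± 6.98 in MMP9, and Adam17, which releases tumour necrosis factor and several ligands of the epidermal growth factor receptor, with 24.3 ± 2.13 TPM in vehicle and 23.8 ± 5.65 in MMP9. These neighbours were not separated beyond their spread. Adamtsl4 was above Adam10 in 6 of 10 libraries, Adam10 above Adam9 in 7, Adam9 above Adamtsl5 in 6 and Adamtsl5 above Adam17 in 7. Adamts2 and Adam8 came next at 23.6 and 22.5 TPM over all libraries, and Adamts1 at 22.0 TPM. In all, 9 members had a mean of at least 20 TPM and held 77.4% of the family's summed mean TPM, while 28 of 46 reached 1 TPM.

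**Figure D2:**
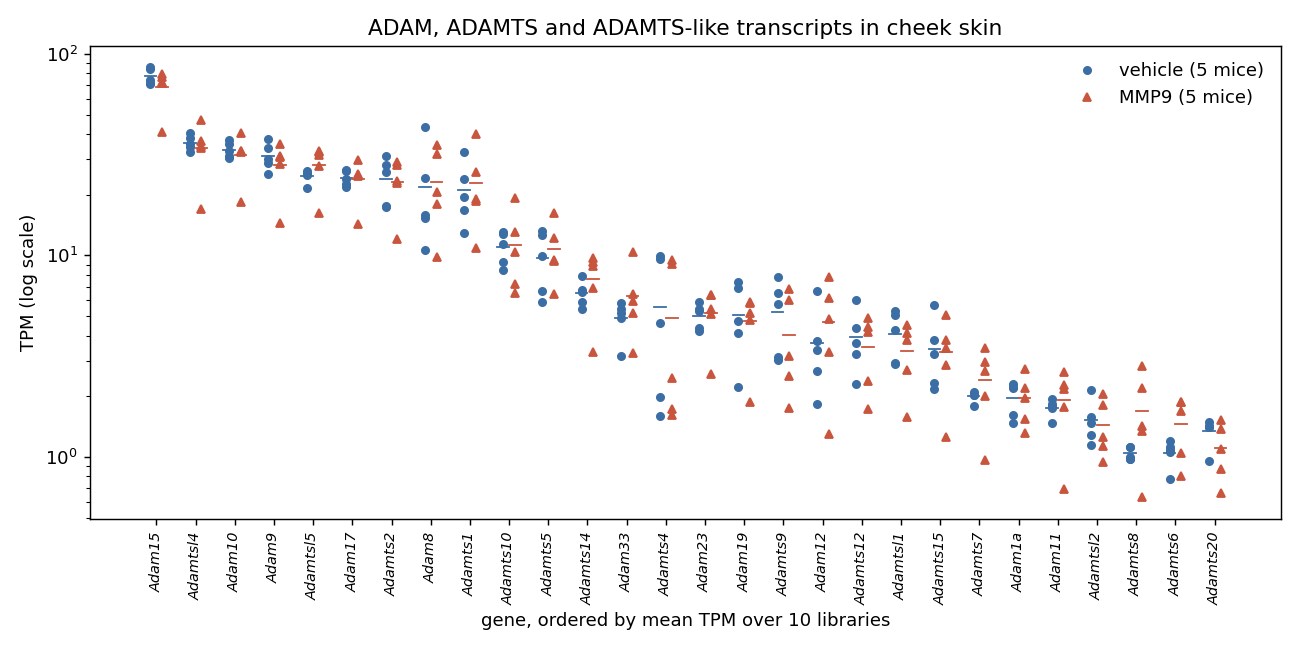
TPM on a log scale (y axis) of the 28 members with a mean of at least 1 TPM (x axis), with 1 point per mouse and short lines at the group means; circles are vehicle and triangles MMP9. Adam15 stands above the rest, and the low triangle in most columns is MMP9 mouse 4. Adamts4 spreads widely in both groups, and its MMP9 mice fall into a high and a low cluster.

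Adam17 and Adam10 were among the steadiest members of the family. Values are listed in the order of mouse 1 to mouse 5. Adam17 stood at 63.7, 68.9, 59.6, 59.2 and 68.4 scaled CPM in vehicle and 73.1, 62.3, 63.4, 56.8 and 65.4 in MMP9. Its groups overlapped almost fully, and its log2 fold change was 0.0056 (standard error 0.087, 95% interval -0.18 to 0.20, edgeR adjusted p of 0.998). Adam10, its closest relative in structure and function, stood at 86.7, 96.2, 90.0, 85.3 and 98.9 scaled CPM in vehicle and 102, 84.0, 85.4, 75.3 and 90.5 in MMP9. MMP9 mouse 1 was the highest library and MMP9 mouse 4 the lowest, and the log2 fold change was -0.064 (standard error 0.094, 95% interval -0.27 to 0.14, edgeR adjusted p of 0.981). The biological coefficient of variation (the spread between mice beyond counting error, as edgeR estimates it) was 0.128 for Adam17 and 0.139 for Adam10, lower than in most tested genes, at percentiles 8.66 and 17.0.

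Adam15 stood at 132, 126, 123, 151 and 146 scaled CPM in vehicle and 116, 132, 119, 107 and 134 in MMP9. In MMP9, 3 of 5 mice lay below every vehicle mouse, and the log2 fold change was -0.16 (standard error 0.098, 95% interval -0.37 to 0.059, edgeR adjusted p of 0.981). Its sign was the same under all 20 alternatives, from -0.22 to -0.12. Adam9, which is broadly expressed and cuts several membrane ligands, stood at 70.3, 72.5, 61.3, 83.9 and 88.7 scaled CPM in vehicle and 69.1, 65.5, 81.5, 52.9 and 75.6 in MMP9. The groups overlapped, vehicle mice 4 and 5 being highest and MMP9 mouse 4 lowest, with a log2 fold change of -0.13 (standard error 0.13, 95% interval -0.42 to 0.17, edgeR adjusted p of 0.981).

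Adam8, a sheddase abundant in granulocytes and macrophages, varied far more. It stood at 29.2, 29.4, 19.9, 45.8 and 79.4 scaled CPM in vehicle and 35.6, 32.0, 56.4, 28.0 and 65.8 in MMP9. The highest value, in vehicle mouse 5, was 4.00 times the lowest, in vehicle mouse 3, and the log2 fold change was 0.096 (standard error 0.37, 95% interval -0.71 to 0.90, edgeR adjusted p of 0.990). Its coefficient of variation was 0.405, at percentile 94.0 of the tested genes. Over the 7 macrophage marker genes the summed level ran from 307 to 1647 scaled CPM in vehicle and from 638 to 1656 in MMP9. It was lowest in vehicle mouse 3 (307) and highest in vehicle mouse 5 (1647) and MMP9 mouse 5 (1656), where Adam8 was also lowest and highest. In MMP9 mouse 3, the next highest for Adam8, it was 708. Lyz2 alone gave 848 of the sum in vehicle mouse 5 and 958 in MMP9 mouse 5. The list was split. Cd68 and Lyz2 were highest in MMP9 mouse 5 and Adgre1, Csf1r and C1qa in vehicle mouse 5. Cd163 and Mrc1 were highest in vehicle mouse 4, at 77.3 and 131 scaled CPM. The part of macrophage content in the Adam8 values was not tested. The 5 neutrophil marker genes summed to between 42.5 and 194 scaled CPM in vehicle and between 26.1 and 79.4 in MMP9, and they differed among themselves. S100a8 and S100a9 carried the highest sum, in vehicle mouse 2, at 69.9 and 96.2 scaled CPM, where Retnlg was at its lowest of 0.109. Csf3r, the receptor of granulocyte colony-stimulating factor, was highest in the same 4 libraries as Adam8, at 26.5 and 26.6 scaled CPM in vehicle mice 4 and 5 and 36.8 and 27.4 in MMP9 mice 3 and 5. The part of neutrophils in the Adam8 values was not tested.

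Adam33, a mesenchymal ADAM, stood at 11.9, 11.2, 8.12, 12.2 and 12.5 scaled CPM in vehicle and 11.0, 22.3, 12.8, 13.0 and 13.9 in MMP9. In MMP9, 4 of 5 mice lay above every vehicle mouse, and the log2 fold change was 0.39 (standard error 0.20, 95% interval -0.046 to 0.82, edgeR adjusted p of 0.981). MMP9 mouse 2 was far above the rest, and without it the value fell to 0.18. Adam12 and Adam19, the meltrins alpha and beta of muscle and mesenchyme, were chosen for description after their values were seen. Adam12 stood at 12.5, 17.2, 8.50, 16.0 and 29.8 scaled CPM in vehicle and 33.4, 21.2, 14.4, 9.01 and 28.7 in MMP9. The groups overlapped over most of their range, and the log2 fold change was 0.35 (standard error 0.38, 95% interval -0.49 to 1.18, edgeR adjusted p of 0.981). Adam19 stood at 16.7, 14.1, 7.85, 24.5 and 25.8 scaled CPM in vehicle and 17.6, 19.0, 16.0, 9.63 and 20.8 in MMP9, lowest in vehicle mouse 3 and MMP9 mouse 4, with a log2 fold change of -0.098 (standard error 0.30, 95% interval -0.76 to 0.57, edgeR adjusted p of 0.988). Adam28, known from lymphocytes, had 19.2 counts over all 10 libraries and was not tested.

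ADAMs known for other organs had means of 5.09 TPM or less over all libraries. Adam22, Adam23 and Adam11 lack protease activity, and in the nervous system Adam22 and Adam23 bind secreted LGI proteins at synapses. Adam23 was the most abundant of these, with 5.03 ± 0.700 TPM in vehicle and 5.16 ± 1.55 in MMP9, against 0.59 TPM over all libraries for Adam22. Adam22 stood at 3.40, 2.07, 2.25, 3.03 and 3.26 scaled CPM in vehicle and 3.06, 4.50, 3.35, 2.70 and 4.10 in MMP9, its groups overlapped, and its log2 fold change was 0.34 (standard error 0.20, 95% interval -0.11 to 0.78, edgeR adjusted p of 0.981). All 3 had log2 fold changes above 0 and none passed, and the sign of Adam23 and of Adam11 turned under at least 1 alternative. The 4 Schwann cell marker genes, whose myelin genes mark the nerves of the skin, summed to between 427 and 705 scaled CPM, and all 4 had log2 fold changes below 0.

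Of the 10 members known mainly from testis or epididymis, 2 were tested. Adam1a had 1.96 ± 0.389 TPM in vehicle and 1.95 ± 0.555 in MMP9 and Adam3 had 0.750 ± 0.223 TPM in vehicle and 0.604 ± 0.158 in MMP9, with log2 fold changes of 0.035 and -0.18. The other 8, Adam1b, Adam2, Adam4, Adam5, Adam18, Adam21, Adam30 and Adam32, had between 2 and 71 counts over all 10 libraries. In a single library 3 counts correspond to between 0.150 and 0.208 scaled CPM, so levels below that cannot be read as absence. Of 6 male germ cell genes looked for, 5 were listed and 1 was tested, with a log2 fold change of 0.32. Those 5 summed to between 0.382 and 0.681 scaled CPM in vehicle and between 0.202 and 0.901 in MMP9. Among them Prm1, Prm2, Tnp1 and Tnp2 had between 1 and 5 counts in all. In the RefSeq gene table, Adam18, Adam3, Adam5, Adam32 and Adam9 lie next to each other in this order, and so do Adam1b and Adam1a. Of the first row, Adam9 was at a mean of 29.7 TPM and the others were under 1 TPM. Adam1a and Adam1b are close copies, and how shared reads were assigned is not stated, so their split is uncertain.

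Among the ADAMTS proteases that cut versican and aggrecan, Adamts1, Adamts4 and Adamts9 had the same 5 libraries highest, and these came from both groups. Adamts4, an aggrecanase, stood at 17.8, 7.48, 37.6, 6.11 and 35.3 scaled CPM in vehicle and 33.3, 6.22, 32.4, 9.22 and 9.40 in MMP9. In each group some mice were at 17.8 scaled CPM or more and the others at 9.40 or less. The high libraries were vehicle mice 1, 3 and 5 and MMP9 mice 1 and 3. Its log2 fold change was -0.20 (standard error 0.61, 95% interval -1.55 to 1.15, edgeR adjusted p of 0.988), and its coefficient of variation of 0.655 was the highest of the members, at percentile 98.1 of all tested genes. Adamts9 stood at 28.3, 15.2, 31.8, 14.9 and 36.9 scaled CPM in vehicle and 26.9, 11.6, 31.1, 12.7 and 15.5 in MMP9. The same 5 libraries were highest, all at 26.9 scaled CPM or more and the others at 15.5 or less, and the log2 fold change was -0.38 (standard error 0.34, 95% interval -1.13 to 0.37, edgeR adjusted p of 0.981). Adamts1, the most abundant of the 3, stood at 71.4, 37.8, 57.3, 50.0 and 92.6 scaled CPM in vehicle and 70.5, 52.8, 111, 47.7 and 54.7 in MMP9. It too was highest in those 5 libraries, but without a gap, as vehicle mouse 3 was at 57.3 and MMP9 mouse 5, the next, at 54.7. Its log2 fold change was 0.12 (standard error 0.27, 95% interval -0.48 to 0.73, edgeR adjusted p of 0.984).

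Adamts4 and Adamts9 are members described in detail outside the rule on highest TPM and smallest p, and the shared order was noticed after the values were seen, so it is a description with no test. Of 561 pairs of tested members, 20 had the same 5 highest libraries, and the 3 pairs among Adamts1, Adamts4 and Adamts9 were among them. How often pairs of other genes do so was not counted, so this number cannot be read as a trait of the family. The 5 libraries came from both treatments. Hair shaft markers summed to 734, 3800.2 and 1592 scaled CPM in vehicle mice 1, 3 and 5 and to 3.26 and 1330 in MMP9 mice 1 and 3. Macrophage markers summed to 736, 307 and 1647 scaled CPM in those vehicle mice and to 638 and 708 in those MMP9 mice. The part of hair follicle and macrophage content, or of any other cell type, in the shared order was not tested. Among the substrates of ADAMs, Hbegf, the heparin-binding ligand of the epidermal growth factor receptor, was also highest in these 5 mice. It stood at 33.4, 16.3, 29.6, 20.0 and 21.9 scaled CPM in vehicle and 32.7, 13.2, 33.6, 19.7 and 14.9 in MMP9, and it too was picked after its values were seen. Here vehicle mouse 5, at 21.9, was little above vehicle mouse 4, at 20.0.

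**Figure D3:**
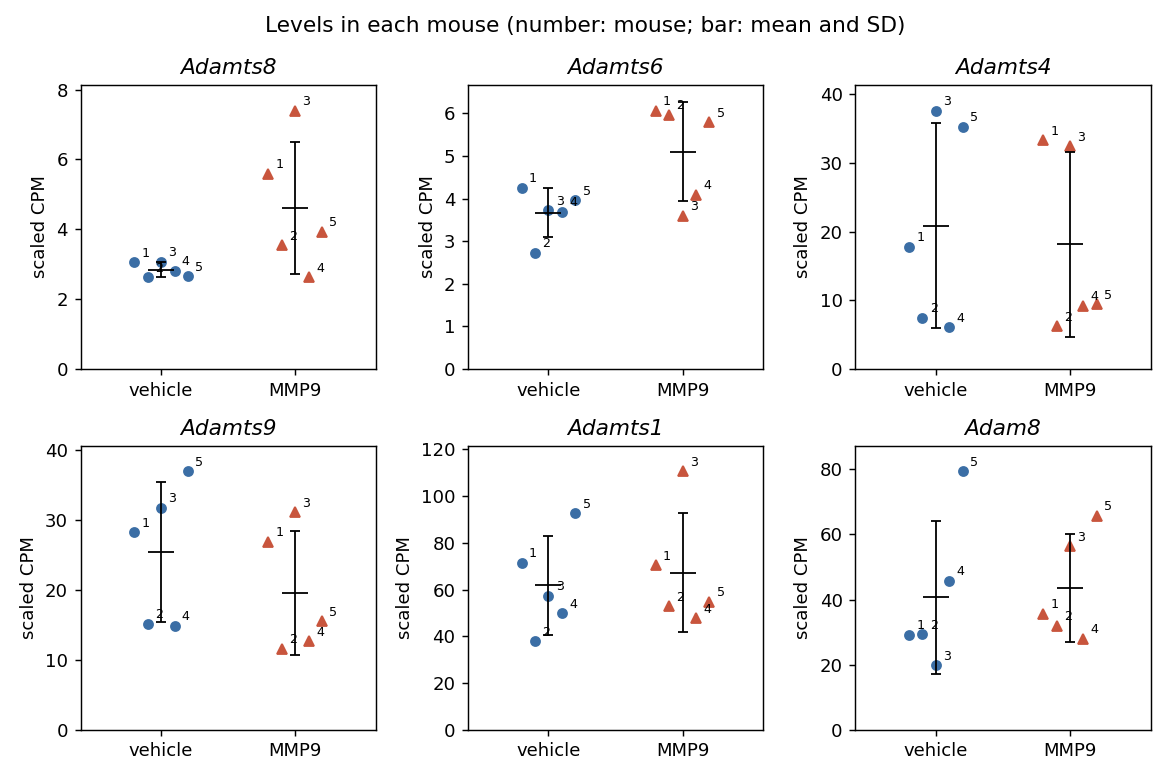
Scaled CPM (y axis, from 0) of 6 members in each mouse, vehicle as circles and MMP9 as triangles, numbered by mouse, with bars for the mean and SD of 5 mice. Adamts8 is above every vehicle mouse in 4 of 5 MMP9 mice, while Adamts4, Adamts9 and Adamts1 are highest in vehicle mice 1, 3 and 5 and MMP9 mice 1 and 3.

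The 250 bases upstream of the RefSeq start of Adamts1 and Adamts9 are shown because these members shared their highest libraries, beside those of Adam17, the steadiest member; Adamts4 was not in the sequence table. They are from RefSeq on GRCm38.p6, all on the minus strand and written 5′ to 3′ toward the start. Capitals mark matches to any of 5 motifs, searched on both strands. The TATA box was searched as TATAAA. For AP-1 the letters were TGANTCA. The core recognised by CREB and ATF proteins was taken as TGACG. An E-box was read as CACGTG. The fifth motif, the binding sequence of NF-Y, was CCAAT.
Adam17, chr12:21373633-21373882, minus strand: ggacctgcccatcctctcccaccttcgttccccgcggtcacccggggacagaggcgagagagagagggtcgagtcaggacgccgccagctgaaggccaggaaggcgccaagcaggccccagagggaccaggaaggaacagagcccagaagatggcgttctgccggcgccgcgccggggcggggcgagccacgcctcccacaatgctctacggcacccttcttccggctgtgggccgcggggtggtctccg
Adamts1, chr16:85803114-85803363, minus strand: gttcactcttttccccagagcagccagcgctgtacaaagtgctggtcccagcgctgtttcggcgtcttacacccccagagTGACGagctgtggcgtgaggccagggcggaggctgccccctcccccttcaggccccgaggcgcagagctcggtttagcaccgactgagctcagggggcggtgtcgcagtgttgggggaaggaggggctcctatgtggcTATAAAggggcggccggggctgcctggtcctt
Adamts9, chr6:92943535-92943784, minus strand: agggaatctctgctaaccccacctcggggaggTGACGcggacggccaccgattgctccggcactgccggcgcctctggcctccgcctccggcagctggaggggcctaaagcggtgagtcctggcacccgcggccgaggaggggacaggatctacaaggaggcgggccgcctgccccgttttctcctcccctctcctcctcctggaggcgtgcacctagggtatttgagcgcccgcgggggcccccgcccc
Adamts1 held a TATA box match beginning 32 bases before the start, which 12.4% of 32851 such upstream windows of all genes also held. Adamts1 and Adamts9 each held 1 TGACG match, 170 and 218 bases before the start, against 17.8% of all windows, and Adam17 held no match to any of the 5. Over the 26 windows of the 24 members in the table, 6 held TGACG and 2 held TATAAA. The TGACG windows were those of Adam10, Adamts1, Adamts12, Adamts3, Adamts9 and Adamtsl3. Adam10, also among the steadiest members, held its match 67 bases before the start, beside an E-box and CCAAT matches. GC content was 65.6%, 71.2% and 70.4% for Adamts1, Adamts9 and Adam17, with a median of 52.4% over all windows. A match is only a run of letters and shows no binding.

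Adamts8, another protease of this group and in other tissues an angiogenesis inhibitor, had the smallest p of all members. It stood at 3.06, 2.62, 3.07, 2.81 and 2.66 scaled CPM in vehicle and 5.60, 3.54, 7.39, 2.63 and 3.94 in MMP9. The 5 vehicle mice were within 2.62 to 3.07 scaled CPM, 4 of 5 MMP9 mice were above all of them, and MMP9 mouse 4 lay among the vehicle mice. The log2 fold change was 0.70 (standard error 0.25, 95% interval 0.15 to 1.26, edgeR adjusted p of 0.981), with an unadjusted p of 0.0178. Over the alternatives it ran from 0.34 to 0.84, with an unadjusted p under 0.05 in 16 of 20, and without MMP9 mouse 3, the highest, it was 0.46. Adamts8 was low in this tissue, with 1.04 ± 0.0735 TPM in vehicle and 1.69 ± 0.849 in MMP9. Its neighbour in the RefSeq gene table, Adamts15, stood at 10.3, 7.15, 6.80, 12.8 and 18.3 scaled CPM in vehicle and 8.55, 10.7, 15.4, 6.24 and 12.7 in MMP9, with a log2 fold change of -0.045 (standard error 0.31, 95% interval -0.72 to 0.63, edgeR adjusted p of 0.994).

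Adamts5, the other main aggrecanase, lies beside Adamts1. It stood at 62.5, 28.5, 32.5, 49.3 and 62.7 scaled CPM in vehicle and 42.9, 43.5, 74.4, 47.1 and 59.6 in MMP9. Like Adamts1 it was lowest in vehicle mouse 2 and highest in MMP9 mouse 3, its groups overlapped, and its log2 fold change was 0.18 (standard error 0.24, 95% interval -0.35 to 0.72, edgeR adjusted p of 0.981). Adamts1 and Adamts5 shared 3 of their 5 highest libraries, as did 246 of the 561 pairs of tested members. Adamts20, whose loss gives the belted mouse its white belt, stood at 6.70, 3.17, 5.76, 5.01 and 4.21 scaled CPM in vehicle and 4.20, 5.21, 3.30, 3.12 and 4.65 in MMP9. Vehicle mouse 1 was highest and MMP9 mouse 4 lowest, with a log2 fold change of -0.28 (standard error 0.22, 95% interval -0.76 to 0.21, edgeR adjusted p of 0.981). Of the 7 proteases of this group, 3 had values above 0 and 4 below, with a median of -0.045.

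The proteases that remove the amino-terminal propeptide of fibrillar procollagens were Adamts2, Adamts14 and Adamts3. Adamts2, the main one in skin, stood at 109.8, 72.2, 72.1, 120.4 and 128 scaled CPM in vehicle and 92.3, 112, 90.6, 76.1 and 123 in MMP9. Its groups overlapped, and its log2 fold change was -0.022 (standard error 0.19, 95% interval -0.45 to 0.40, edgeR adjusted p of 0.995), a sign that turned under 8 of 20 alternatives. Adamts14 stood at 18.6, 20.3, 16.8, 21.1 and 23.7 scaled CPM in vehicle and 26.6, 28.7, 20.1, 15.5 and 27.4 in MMP9. In MMP9, 3 of 5 mice lay above every vehicle mouse and MMP9 mouse 4 below all of them, and the log2 fold change was 0.24 (standard error 0.17, 95% interval -0.13 to 0.61, edgeR adjusted p of 0.981). The unadjusted edgeR p of Adamts14 was 0.186, and it was under 0.05 in 1 of 20 alternatives. That was without MMP9 mouse 4, where the log2 fold change was 0.35 with an unadjusted edgeR p of 0.0234. Adamts3 was barely detected, with 109 counts over all libraries and 0.118 ± 0.0449 TPM in vehicle and 0.154 ± 0.0467 in MMP9. It stood at 0.284, 0.546, 0.658, 0.385 and 0.701 scaled CPM in vehicle and 0.622, 0.404, 0.699, 0.832 and 0.820 in MMP9, and its log2 fold change was 0.37 (standard error 0.31, 95% interval -0.30 to 1.04, edgeR adjusted p of 0.981).

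The remaining ADAMTS genes include the fibrillin-linked Adamts6 and Adamts10 and the cartilage matrix proteases Adamts7 and Adamts12. Adamts6 had the second smallest p. It stood at 4.26, 2.73, 3.73, 3.69 and 3.96 scaled CPM in vehicle and 6.06, 5.96, 3.60, 4.09 and 5.79 in MMP9. In MMP9, mice 1, 2 and 5 were above every vehicle mouse and mice 3 and 4 were within the vehicle range, with a log2 fold change of 0.47 (standard error 0.19, 95% interval 0.054 to 0.90, edgeR adjusted p of 0.981) and an unadjusted p of 0.0304. It ran from 0.24 to 0.58 over the alternatives, was 0.32 when vehicle mouse 2 and MMP9 mouse 1 were both left out, and had an unadjusted p under 0.05 in 10 of 20. Adamts10 stood at 29.1, 18.5, 20.4, 26.3 and 28.7 scaled CPM in vehicle and 21.6, 40.0, 15.5, 22.3 and 30.3 in MMP9. MMP9 mice held both the highest value and the lowest, in mice 2 and 3, and the log2 fold change was 0.078 (standard error 0.23, 95% interval -0.44 to 0.59, edgeR adjusted p of 0.988). Adamts7 and Adamts12 had log2 fold changes of 0.22 and -0.13, and Adamts17 and Adamts19 of -0.15 and 0.099. Adamts13, the protease of von Willebrand factor, known from liver, had 43.6 counts over all libraries, Adamts16 had 25.0 and Adamts18 had 79.0, and these 3 were not tested.

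All 5 ADAMTS-like genes were tested and none passed. Adamtsl5, which binds fibrillin, had the third smallest p of the members. It stood at 46.9, 45.2, 45.8, 48.4 and 38.2 scaled CPM in vehicle and 46.9, 56.9, 53.8, 44.6 and 59.2 in MMP9. MMP9 mice 2, 3 and 5 were above every vehicle mouse, and the log2 fold change was 0.22 (standard error 0.10, 95% interval -0.0020 to 0.44, edgeR adjusted p of 0.981), with an unadjusted p of 0.0518. Its sign was the same under all 20 alternatives, from 0.15 to 0.27. Adamtsl4 stood at 83.0, 72.9, 76.4, 92.5 and 69.8 scaled CPM in vehicle and 71.4, 94.5, 75.8, 52.4 and 75.5 in MMP9. The MMP9 group held both the highest and the lowest library, with a log2 fold change of -0.094 (standard error 0.14, 95% interval -0.41 to 0.22, edgeR adjusted p of 0.981). Adamtsl1, or punctin, stood at 20.4, 13.3, 13.4, 24.3 and 24.5 scaled CPM in vehicle and 16.4, 18.0, 12.2, 11.6 and 20.8 in MMP9, with overlapping groups and a log2 fold change of -0.28 (standard error 0.22, 95% interval -0.77 to 0.21, edgeR adjusted p of 0.981). Adamtsl2, which binds latent TGF-beta binding proteins, and Adamtsl3 had values of -0.050 and 0.12.

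For most tested members the spread between mice was above the median of all tested genes. The median coefficient of variation was 0.249 for the tested members against 0.185 for all tested genes, and 27 of 34 members lay above the latter's median. Adam17 and Adamtsl5 lay well below it, at percentiles 8.66 and 16.3. The comparison was not matched for the level of the genes. Vehicle mouse 5 and MMP9 mouse 2 were each the highest library for 9 of 34 members, MMP9 mouse 4 was the lowest for 13 and vehicle mouse 2 for 7. Adam15, Adamts2, Adamts10, Adamtsl1 and Adamtsl2 shared their 5 highest libraries, which were vehicle mice 1, 4 and 5 and MMP9 mice 2 and 5. Adam19, Adam23, Adamts12 and Adamts14 shared theirs, which were vehicle mice 4 and 5 and MMP9 mice 1, 2 and 5. The 7 fibroblast marker genes summed to between 3194 and 8566 scaled CPM, lowest in vehicle mice 3 and 2 and highest in MMP9 mouse 5. In MMP9 mouse 4 they summed to 8242, of which Dcn was 4283, and the list was split there. Dcn, Lum and Dpt were at their highest in that library, while Pdgfra at 59.9 scaled CPM was higher than in only 2 others, vehicle mice 2 and 3, at 44.5 and 51.1. The part of fibroblast and macrophage content in these patterns was not tested.

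**Figure D4:**
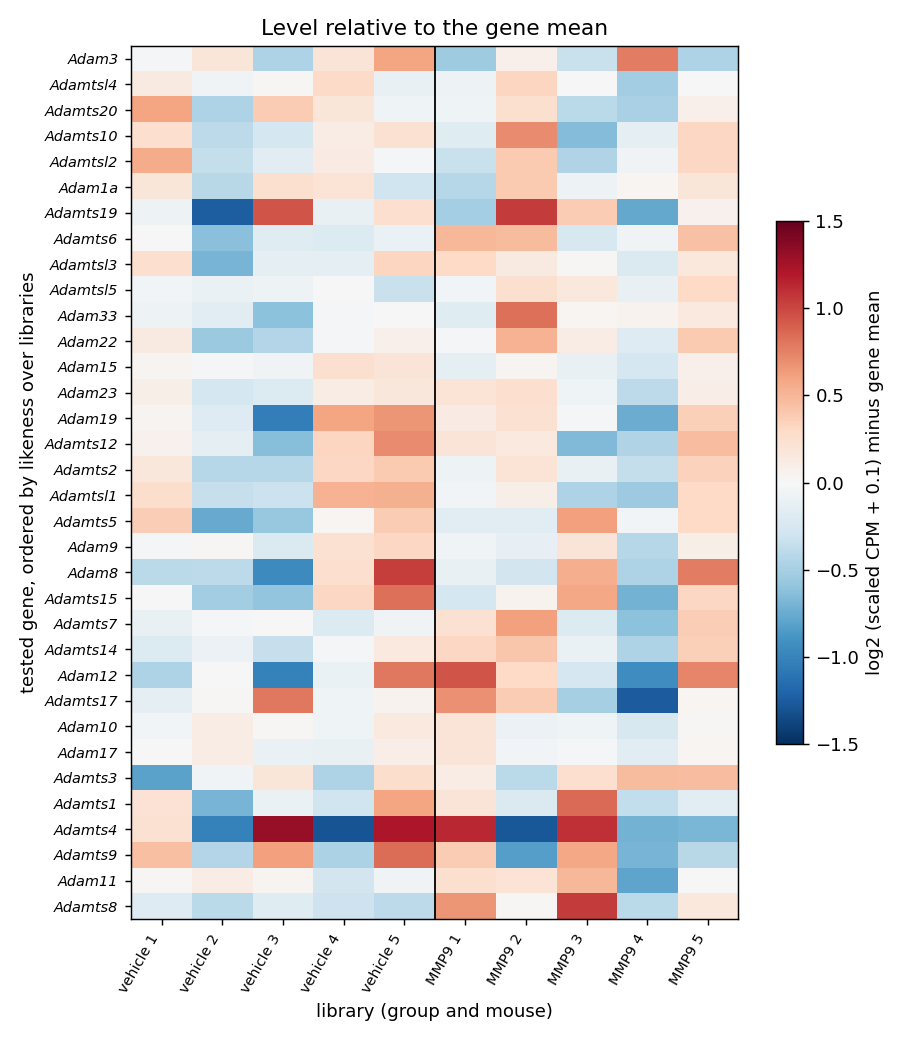
Level of each tested member (y axis, ordered by likeness over libraries) in each library (x axis), as log2 of scaled CPM plus 0.1 minus the gene's mean over 10 libraries, red above and blue below. The vertical line parts vehicle from MMP9, the column of MMP9 mouse 4 is mostly blue, and Adamts4 has the strongest contrast between libraries.

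The inhibitors, regulators and substrates of these proteases also gave no gene that passed. Of the 5 inhibitor genes, 4 had log2 fold changes above 0 and 1 below, with a median of 0.043. Timp3, the matrix-bound inhibitor of Adam17 and of aggrecanases, had 463 ± 65.8 and 477 ± 47.4 scaled CPM in vehicle and MMP9 (SD, n = 5), and Timp1, Timp4 and Reck had log2 fold changes of 0.18, -0.43 and 0.058. Of 13 genes for maturation and trafficking, 12 were tested, 7 above 0 and 5 below. The iRhom genes Rhbdf1 and Rhbdf2, whose products bring Adam17 to the cell surface, had 46.9 and 26.7 TPM over all libraries. Furin, which cleaves the prodomains of many ADAMs, had a log2 fold change of -0.19, Pcsk6 of 0.085, Frmd8 of -0.093 and Tspan14 of -0.082.

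Of 24 ADAM substrates, 13 were above 0 and 11 below, and 1 had an unadjusted p under 0.05, against 53.7% above 0 and 3.19% under that p among all tested genes. The substrates were thus near the background on both counts. The 1 gene was Vcam1, an adhesion molecule of activated endothelium that Adam17 can shed, at 13.1, 12.7, 13.9, 17.7 and 22.9 scaled CPM in vehicle and 33.4, 20.1, 31.3, 17.5 and 26.8 in MMP9. In MMP9, 3 of 5 mice were above every vehicle mouse, and the log2 fold change was 0.68 (standard error 0.22, 95% interval 0.21 to 1.16, edgeR adjusted p of 0.981). Cxcl16, Btc and Icam1 had log2 fold changes of 0.21, 0.24 and 0.27. The 6 endothelial marker genes summed to between 517 and 623 scaled CPM in vehicle and between 419.6 and 602 in MMP9, with log2 fold changes below 0 for 5 of 6, and their part in the Vcam1 values was not tested. Of 13 ADAMTS substrates, 12 were tested, 8 above 0 and 4 below, with Bcan, Acan, Col3a1 and Fbn1 at 0.44, 0.54, 0.24 and -0.22. Vcan, the versican gene, had 48.1 ± 21.9 and 50.9 ± 16.1 scaled CPM.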

How the data were processed

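Per the file headers, the deposited table gives 18994 genes with an estimated count (not always whole), a TPM and an FPKM value in each library. The deposited TPM values are scaled by transcript length and by their own sum; the authors' FPKM values were not used. The submitters' processing notes name HISAT and the build GRCm39. Which quantifier and annotation were used, and how strand and shared reads were handled, is not given in the sources used here. Rounded counts entered edgeR 4.0.16 under R 4.3.3, with filterByExpr (15250 genes kept), TMM factors, a quasi-likelihood fit with treatment as the only term, and Benjamini-Hochberg adjustment over all kept genes at 0.05. Standard errors derive from the F statistic. DESeq2 1.42.0 and limma 3.58.1 served as alternatives. The test was also run on simulated data, whose outcome is not reported here and is not used as support. The symbol rule uses no measured value, but the family, the gene lists and the comparisons were chosen with earlier results of these data known. Values in every library are given for the 12 members of highest mean TPM and the 10 of smallest p, and of each partner list up to 4 genes of smallest p are named. Rhbdf1, Rhbdf2, Vcan, Hbegf, Adam12, Adam19, Adamts4, Adamts9 and Adamts15 were picked once their values had been seen. Single marker genes, among them Csf3r, were likewise named once their values had been seen. The marker lists of T cells, smooth muscle and adipocytes had medians of 0.26, 0.15 and 0.093 on the log2 scale over 5, 5 and 4 tested genes. Fibroblast, macrophage, neutrophil, endothelial, skeletal muscle, keratinocyte, hair shaft and Schwann cell lists had 0.24, -0.12, -0.065, -0.12, -0.008, -0.031, -1.30 and -0.22. Promoter sequences were of GRCm38.p6, another build than the files', so no other coordinates are given.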

Additional observations from a re-analysis of the deposited data

Results flagged for a closer look

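In 68 groups of 5 mice (34 tested members in each treatment), 2 values stood apart from the other 4 of their group by Dixon's criterion, where chance alone gives about 1 in 20 groups, or 3.4. Adam33 was at 22.3 scaled CPM in MMP9 mouse 2, with the other MMP9 mice at 11.0 to 13.9, and its log2 fold change was 0.18 without that mouse, against 0.39 with it. Adamts17 was at 2.58 scaled CPM in vehicle mouse 3, with the other vehicle mice at 1.31 to 1.5, and its log2 fold change was 0.063 without that mouse, against -0.15 with it.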

How the results depend on the processing

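Under all 20 alternatives 0 members passed, and the lowest adjusted p of a member was 0.887. Over all genes 0 passed, except that DESeq2 called 1, which was no member. The members' median log2 fold change was 0.042; it ran from -0.029 to 0.10 when single mice were left out, from -0.060 to 0.067 under the other settings with all mice, and was -0.041 without vehicle mouse 2 and MMP9 mouse 1, so its sign carries no direction. Of the 34 tested members 17 changed sign under at least 1 alternative. Members at an unadjusted p under 0.05 numbered between 0 and 5, the 5 without MMP9 mouse 4. With the mouse number as a replicate block 0 genes were called, the members' median was 0.028 and 1 member had an unadjusted p under 0.05; same-numbered mice correlated between -0.242 and 0.455, not all above 0.1, so the numbers were not taken as pairs. Depth limits the 12 untested members, which had 2 to 79 counts over all libraries.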
